A study of Mus musculus with 16 samples.

Results

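The Fgf receptor genes Fgfr1, Fgfr2, Fgfr3, Fgfr4 and Fgfrl1 are described here in the facial layers of mouse embryos with and without Esrp1. The 5 genes were taken by symbol from a table of 30286 gene symbols, and each had 1 row. RNA came from facial prominences, the buds that form the face, of C57BL/6 embryos at embryonic day 12, with surface ectoderm and the mesenchyme below it separated by surgery. The 4 groups were ectoderm of Esrp1-/- embryos (KO ectoderm), ectoderm of wild-type embryos (WT ectoderm), mesenchyme of Esrp1-/- embryos (KO mesenchyme) and mesenchyme of wild-type embryos (WT mesenchyme). Each group had 4 libraries, and each library was a pool of 6 to 7 embryos. The deposited table gives 1 TPM value per gene and group (a share of all transcripts, corrected for transcript length and sequencing depth). No spread between libraries can be computed from it, so no difference below has a replicate check, and "higher" and "lower" describe the deposited values.

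Fibroblast growth factors (Fgfs) are secreted signals that pass between facial ectoderm and mesenchyme. They bind receptor tyrosine kinases encoded by Fgfr1 to Fgfr4, together with heparan sulfate chains on the cell surface. The product of Fgfrl1 binds Fgfs but lacks the tyrosine kinase domain. In Fgfr1, Fgfr2 and Fgfr3 a pair of alternative exons, IIIb and IIIc, encodes the end of the third immunoglobulin-like loop, and the choice sets which ligands bind. Epithelial cells mostly use the IIIb exon of Fgfr2, which favours Fgf7 and Fgf10 made by mesenchyme, and mesenchymal cells the IIIc exon, which favours ligands such as Fgf8 and Fgf9. Esrp1 encodes an epithelial RNA-binding protein that promotes the IIIb exon of Fgfr2.

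The alternative exons were located in the GENCODE M21 annotation of GRCm38 (the build also called mm10) as pairs of exons of like length between the same neighbours, the upstream one being IIIb. Such a pair was found in Fgfr1, Fgfr2 and Fgfr3, and none in Fgfr4 or Fgfrl1. The IIIb exon of Fgfr2, the exon that Esrp1 promotes in the leading receptor of ectoderm, is shown 5′ to 3′ on the coding strand, because the deposited values per gene do not separate the forms with and without it.
Fgfr2 IIIb: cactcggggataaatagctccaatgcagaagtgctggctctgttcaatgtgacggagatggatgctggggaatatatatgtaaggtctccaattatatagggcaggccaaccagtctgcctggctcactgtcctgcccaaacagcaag
It lies at chr7:130199758-130199905 on the minus strand and is 148 bases long. Of the 17 coding transcripts of Fgfr2 in the annotation, 10 carry the IIIb and 5 the IIIc exon, and none carries both. Of the 9 of Fgfr1, 2 carry the IIIb and 4 the IIIc exon, and of the 13 of Fgfr3, 4 carry the IIIb and 5 the IIIc exon. The levels below are per gene, and a switch from one exon to the other could leave such a level as it was.

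The targeted gene and the layers were checked first. Esrp1 was at 62.9 TPM in KO ectoderm and 170.02 in WT ectoderm, and at 1.0 in KO mesenchyme and 1.01 in WT mesenchyme. A value per gene does not show which exons the RNA in KO tissue holds. Its paralog Esrp2, also a splicing regulator of epithelia, was at 76.5 TPM in KO ectoderm and 71.8 in WT ectoderm, and under 1 TPM in both mesenchyme groups. Rbfox2, an RNA-binding protein that also acts on the Fgfr2 exons, was at 58.2 TPM in KO ectoderm and 54.9 in WT ectoderm, and at 70.1 in KO mesenchyme and 91.2 in WT mesenchyme. The 25 markers of surface epithelium added up to 3695 and 4143 TPM in KO and WT ectoderm and to 49.3 and 54.6 TPM in KO and WT mesenchyme. The 30 mesenchyme markers added up to 1005 TPM in KO ectoderm and 531 in WT ectoderm, and to 3558 in KO mesenchyme and 4828 in WT mesenchyme, with no member at 0 in any group.

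**Figure D1:**
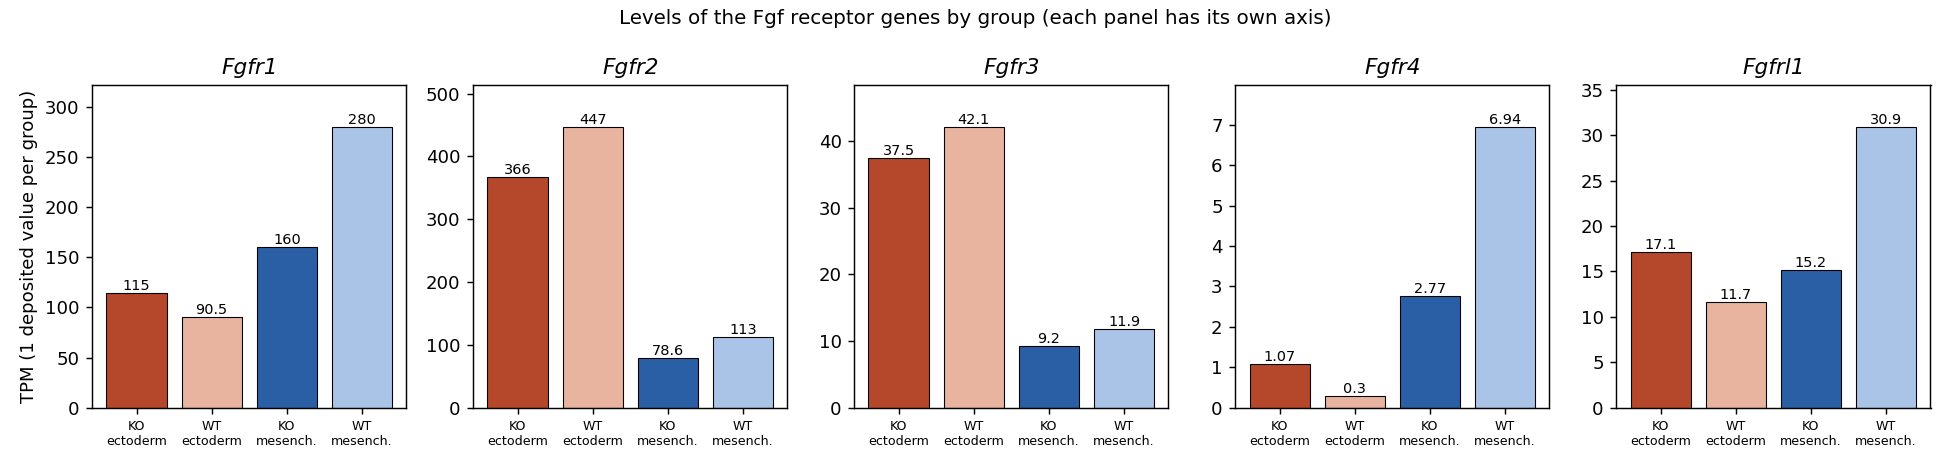
Deposited TPM of each receptor gene (vertical axes, starting at 0 and scaled per gene) in KO ectoderm, WT ectoderm, KO mesenchyme and WT mesenchyme, with 1 value per bar and no error. Fgfr2 and Fgfr3 are higher in both ectoderm groups than in both mesenchyme groups, and Fgfr1 and Fgfr4 have their highest value in WT mesenchyme.

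Fgfr2 (ENSMUSG00000030849.18) was the most abundant receptor of ectoderm, at 366 TPM in KO ectoderm, 447 in WT ectoderm, 78.6 in KO mesenchyme and 113 in WT mesenchyme. Both ectoderm values lie above both mesenchyme values, and within each layer the KO value is the lower one. In WT ectoderm 272 of the 30286 symbols had a higher value, which placed Fgfr2 in the top 1.998% of genes at 1 TPM or more. RefSeq, from which the other genes' positions below also come, places the gene at chr7:130162451-130266808 (GRCm38.p6, minus strand), while GENCODE M21 extends it to 133123350. Which of these models gave the deposited level is not given in the sources used here.

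Fgfr1 (ENSMUSG00000031565.18, chr8:25518759-25575718, plus strand) was the most abundant receptor of mesenchyme. It was at 115 TPM in KO ectoderm, 90.5 in WT ectoderm, 159.9 in KO mesenchyme and 279.9 in WT mesenchyme. On the TPM scale the value in KO mesenchyme lay nearer to the ectoderm values than to that of WT mesenchyme. This did not hold on the log2 scale with the GC trend described below subtracted. There the log2 ratio was -0.38 for KO to WT mesenchyme and -0.72 for KO ectoderm to KO mesenchyme. Fgfr3 (ENSMUSG00000054252.18, chr5:33721724-33737068, plus strand), a receptor best known for restraining bone growth, was at 37.5 TPM in KO ectoderm, 42.1 in WT ectoderm, 9.20 in KO mesenchyme and 11.9 in WT mesenchyme. Its order over the 4 groups was that of Fgfr2 at a lower level. A pseudogene of this receptor, Fgfr3-ps, is listed at 0 in all 4 groups.

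Fgfrl1 (ENSMUSG00000008090.14, chr5:108694229-108706950, plus strand) was at 17.1 TPM in KO ectoderm, 11.7 in WT ectoderm, 15.2 in KO mesenchyme and 30.9 in WT mesenchyme. The layers differed in WT tissue and were close in KO tissue. Fgfr4 (ENSMUSG00000005320.9, chr13:55152818-55168759, plus strand) was the least abundant, at 1.07 TPM in KO ectoderm, 0.30 in WT ectoderm, 2.77 in KO mesenchyme and 6.94 in WT mesenchyme. In KO and in WT ectoderm the order of levels was Fgfr2, Fgfr1, Fgfr3, Fgfrl1 and Fgfr4. In KO and in WT mesenchyme it was Fgfr1, Fgfr2, Fgfrl1, Fgfr3 and Fgfr4. Neighbours in these orders differed by 1.65-fold or more, but whether that exceeds the spread between libraries cannot be told.

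The share of each receptor within a group does not move when a whole column is rescaled. It can move with the trend with GC content described below, which was not subtracted from the shares. Fgfr2 made up 70.5% of the summed TPM of Fgfr1 to Fgfr4 in KO ectoderm and 77.1% in WT ectoderm. Fgfr1 made up 22.1% in KO ectoderm and 15.6% in WT ectoderm. Fgfr2 thus stood at 3.19 times the level of Fgfr1 in KO ectoderm and 4.93 times in WT ectoderm. In mesenchyme the balance was the other way: Fgfr1 made up 63.8% in KO and 68.0% in WT, and Fgfr2 31.4% in KO and 27.4% in WT. The log2 ratios of KO to WT mesenchyme (TPM plus 1) were -0.80 for Fgfr1 and -0.51 for Fgfr2. With the GC trend subtracted they were closer, at -0.38 and -0.33. Fgfr3 held 7.22% in KO ectoderm and 7.27% in WT ectoderm, and 3.67% in KO mesenchyme and 2.89% in WT mesenchyme. The sum of the 4 receptors was 519.9 TPM in KO ectoderm and 579.6 in WT ectoderm (89.7% of WT), and 250.4 TPM in KO mesenchyme and 411 in WT mesenchyme (60.9% of WT).

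**Figure D2:**
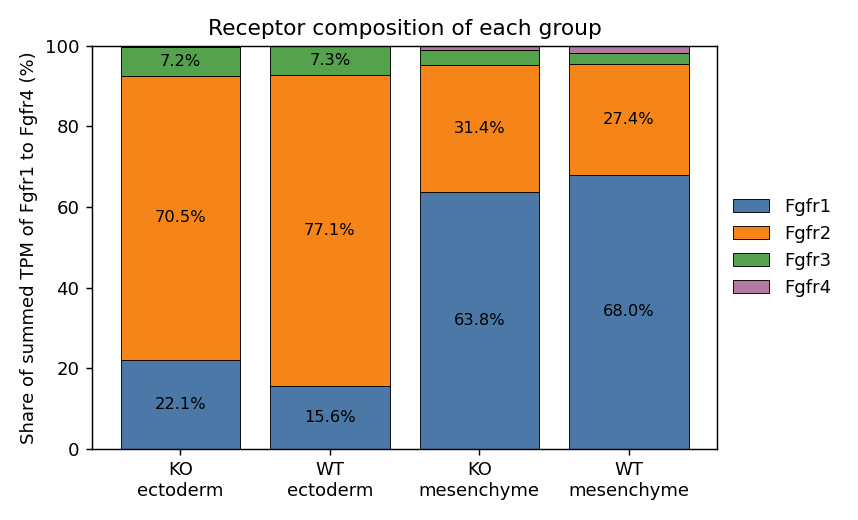
Share of Fgfr1, Fgfr2, Fgfr3 and Fgfr4 in the summed TPM of these 4 genes (vertical axis, percent) in each group, 1 value per group. Fgfr2 takes 70.5% in KO ectoderm and 77.1% in WT ectoderm, and Fgfr1 takes 63.8% in KO mesenchyme and 68.0% in WT mesenchyme.

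The difference between ectoderm and mesenchyme was measured in each genotype as the log2 ratio of TPM plus 1, which understates ratios of low genes. A gene entered a comparison if the groups in it averaged 1 TPM or more. Among KO groups, Fgfr2 (log2 ratio 2.21) and Fgfr3 (1.92) were at least 2-fold higher in ectoderm, where 9.06% of the 14411 genes tested were higher and 6.88% lower (15.9% in either direction). Fgfr1 (-0.47), Fgfr4 (-0.87) and Fgfrl1 (0.16) were within 2-fold between the KO layers. For Fgfr4 this ended with a pseudocount of 0.1 (-1.30) and after the trend with GC content described below was subtracted (-1.24). Among WT groups, Fgfr2 (1.98) and Fgfr3 (1.74) were again higher in ectoderm, and Fgfr1 (-1.62), Fgfr4 (-2.61) and Fgfrl1 (-1.33) were lower. All 5 receptors were thus at least 2-fold apart between the WT layers, compared with 6.88% of the 14242 genes tested that were higher and 12.1% that were lower in ectoderm (18.9% in either direction). After quantile normalization of the columns 1172 genes were higher and 1358 lower there, where 980 and 1718 had been. The 3 receptors with more RNA in WT mesenchyme had layer differences closer to 0 in KO tissue, with both the ectoderm value higher and the mesenchyme value lower.

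In KO ectoderm no receptor was 1.5-fold from WT ectoderm, while 4.92% of the 13935 genes tested were higher and 0.452% lower (5.37% in either direction). Those shares stand for 686 higher and 63 lower genes, and quantile normalization gave 467 and 131. Fgfr2 had a log2 ratio of -0.29 (82.0% of the WT level) and Fgfr3 of -0.16 (89.1%). Fgfr1 had 0.34 (127%) and Fgfrl1 0.52 (147%). The spread over genes in this comparison was narrow: 2.6% of the genes tested had a ratio below that of Fgfr2, and 6.0% one above that of Fgfrl1. Fgfr4 was under the filter, with 1.07 TPM in KO ectoderm and 0.30 in WT ectoderm. The ratios of the 4 receptors lay on both sides of 0. Fgfr2 and Fgfr3, which had more RNA in WT ectoderm than in WT mesenchyme, were lower, and Fgfr1 and Fgfrl1, which had less, were higher. The WT ectoderm value of each gene enters both comparisons with opposite sign, so the comparisons are not independent and the pattern is a description. The median of the 4 was 0.09, against 0.05 for all genes tested.

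Marker sums also differed between KO and WT ectoderm. The 30 mesenchyme markers added up to 1.89 times as much in KO as in WT ectoderm, those of endothelium to 2.83 times, of skeletal muscle to 2.77 times and of cartilage and bone to 1.53 times. Markers of olfactory ectoderm stood at 2.15 times, of macrophages at 1.59 times and of neurons at 1.33 times their WT sum, and those of red blood cells (1.06) and of Schwann cells and melanoblasts (1.05) were close to it. In the last list Erbb3, itself higher in WT ectoderm than in WT mesenchyme, gave 42.5 of 64.8 TPM in KO ectoderm and 41.8 of 61.6 in WT ectoderm. Of its 7 members tested, 5 were above WT and 2 below. Sox10 (3.25 TPM in KO and 1.78 in WT) was the 1 past 1.5-fold. What part the cells of these lists have in the receptor values beyond the subtraction below was not tested. For 24 mesenchyme markers whose WT levels were 5-fold or more apart between layers, the gain in KO ectoderm equalled a median of 10.95% of their mesenchyme excess (quartiles 9.34 to 12.4). A mixture of WT ectoderm with that share of WT mesenchyme would hold 111 TPM of Fgfr1, and KO ectoderm held 115. The same mixture would hold 410.1 TPM of Fgfr2 and 38.8 of Fgfr3, and KO ectoderm held 366 and 37.5. For Fgfrl1 it would hold 13.8 TPM, against 17.1 in KO ectoderm. With the share subtracted from KO ectoderm, the log2 ratios of KO to WT ectoderm were 0.06 for Fgfr1, -0.17 for Fgfr2, -0.05 for Fgfr3 and 0.38 for Fgfrl1. A share of KO mesenchyme, from 23 markers 5-fold or more above WT ectoderm there, was 16.6% with wider quartiles (12.8 to 25.9). WT ectoderm mixed with that share would hold 102 TPM of Fgfr1, 386 of Fgfr2, 36.7 of Fgfr3 and 12.25 of Fgfrl1. With this share subtracted in place of the other, the log2 ratios were 0.22, -0.08, 0.03 and 0.55 in that order of genes. The direction for Fgfr3 thus depended on the subtraction. In the composition of KO ectoderm, the share of Fgfr1 was 17.7% with WT mesenchyme subtracted and 18.5% with KO mesenchyme subtracted, against 15.6% in WT ectoderm. In bulk tissue, fewer cells of a type and less RNA per cell cannot be told apart.

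In KO mesenchyme all 5 receptors were below WT mesenchyme in the deposited values. Fgfr4 (log2 ratio -1.08, 39.9% of the WT level), Fgfrl1 (-0.98, 49.3%) and Fgfr1 (-0.80, 57.1%) were at least 1.5-fold lower, and Fgfr2 (-0.51, 69.8%) and Fgfr3 (-0.34, 77.4%) were within 1.5-fold. Of the 14233 genes tested in this comparison, 13.4% were lower and 2.33% higher by that size (15.7% in either direction). The median of the receptors was -0.80 and that of all genes tested -0.12. Ratios below those of the receptors were found in 1.1% of genes for Fgfr4, 2.2% for Fgfrl1, 5.2% for Fgfr1, 17.0% for Fgfr2 and 29.4% for Fgfr3. After quantile normalization, which gave 639 higher and 968 lower genes, Fgfr4 (-0.99), Fgfrl1 (-0.76) and Fgfr1 (-0.69) were still past 1.5-fold. Mesenchyme markers added up to 0.737 times their WT sum in KO mesenchyme. Markers of cartilage and bone stood at 0.638 times, of endothelium at 0.712 times, of olfactory ectoderm at 0.729 times, of skeletal muscle at 0.789 times, of Schwann cells and melanoblasts at 0.815 times and of surface epithelium at 0.903 times. In each of the last 2 lists 1 member was at least 1.5-fold lower, Erbb3 (7.45 TPM in KO and 14.2 in WT) and Cdh3 (5.79 and 11.3). Markers of macrophages (1.02) and red blood cells (1.05) were close to WT and those of neurons stood at 1.53 times. These sums include the GC trend described below. With it subtracted, median log2 ratios went from -0.50 to -0.28 for mesenchyme and from -0.76 to -0.29 for cartilage and bone. They went from -0.42 to -0.16 for endothelium and from -0.26 to -0.13 for skeletal muscle. Macrophages went from 0.09 to 0.45, neurons from 0.595 to 0.76 and surface epithelium from -0.02 to 0.32. Red blood cells went from -0.17 to 0.20. The part of these markers in the receptor values was not tested.

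The ratios in mesenchyme followed the GC content of the transcripts over all genes. In 20 bins of equal size, the median log2 ratio of KO to WT mesenchyme was 0.25 in the bin with the lowest GC content (median 38.7%) and -0.56 in that with the highest (61.0%). The transcripts of Fgfr1 (55.4% GC), Fgfr3 (56.4%), Fgfrl1 (57.8%) and Fgfr4 (58.8%) lay above the upper quartile of 54.9% of the genes tested, and that of Fgfr2 (49.9%) near the median of 50.1%. The trend stood at -0.42 for Fgfr1, -0.51 for Fgfrl1, -0.54 for Fgfr4, -0.46 for Fgfr3 and -0.18 for Fgfr2. With it subtracted, no receptor was 1.5-fold lower: Fgfr4 was at -0.54, Fgfrl1 at -0.47, Fgfr1 at -0.38, Fgfr2 at -0.33 and Fgfr3 at 0.12. Of all genes tested, 298 were then lower and 661 higher, where 1902 and 332 had been. In ectoderm the bin medians rose instead, from -0.002 at the lowest GC content to 0.20 at the highest. With the ectoderm trend subtracted, Fgfr1 was at 0.25, Fgfr2 at -0.30, Fgfr3 at -0.265 and Fgfrl1 at 0.39 in ectoderm. What gave rise to either trend was not tested. The labels list 2 index barcodes for 2 libraries of KO mesenchyme and for 0 of WT mesenchyme, and a value per group does not separate libraries by index.

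**Figure D3:**
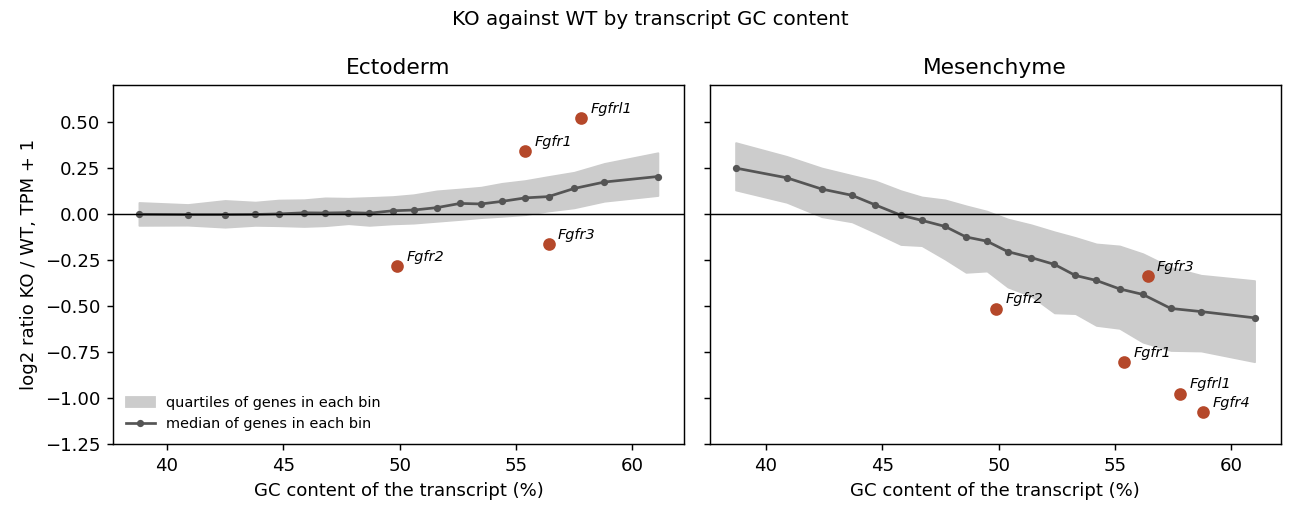
log2 ratio of KO to WT (vertical axis, TPM plus 1) against transcript GC content (horizontal axis, percent) in ectoderm and mesenchyme. The grey line and band are the median and quartiles of genes in 20 bins, and red points are the receptors above the filter on low values, so Fgfr4 is missing in ectoderm. In mesenchyme the line falls to -0.56 at the highest GC content, and the receptors other than Fgfr3 lie below it.

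Subtracting the KO effect in mesenchyme from that in ectoderm gave a log2 difference past 1.5-fold for Fgfr4 (1.75), Fgfrl1 (1.49) and Fgfr1 (1.14), in the direction of 22.9% of the 14329 genes tested, with 2.35% in the other and 25.2% in either. Quantile normalization moved that split to 1685 and 1103 genes, where 3280 and 337 had been, and left these 3 receptors past 1.5-fold. The value for Fgfr4 rests on ectoderm levels of 1.07 TPM in KO and 0.30 TPM in WT. Fgfr2 (0.23) and Fgfr3 (0.17) were near the median of all genes, 0.19. After the GC trend was subtracted the values were 1.05 for Fgfr4, 0.86 for Fgfrl1, 0.64 for Fgfr1, 0.02 for Fgfr2 and -0.38 for Fgfr3.

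**Figure D4:**
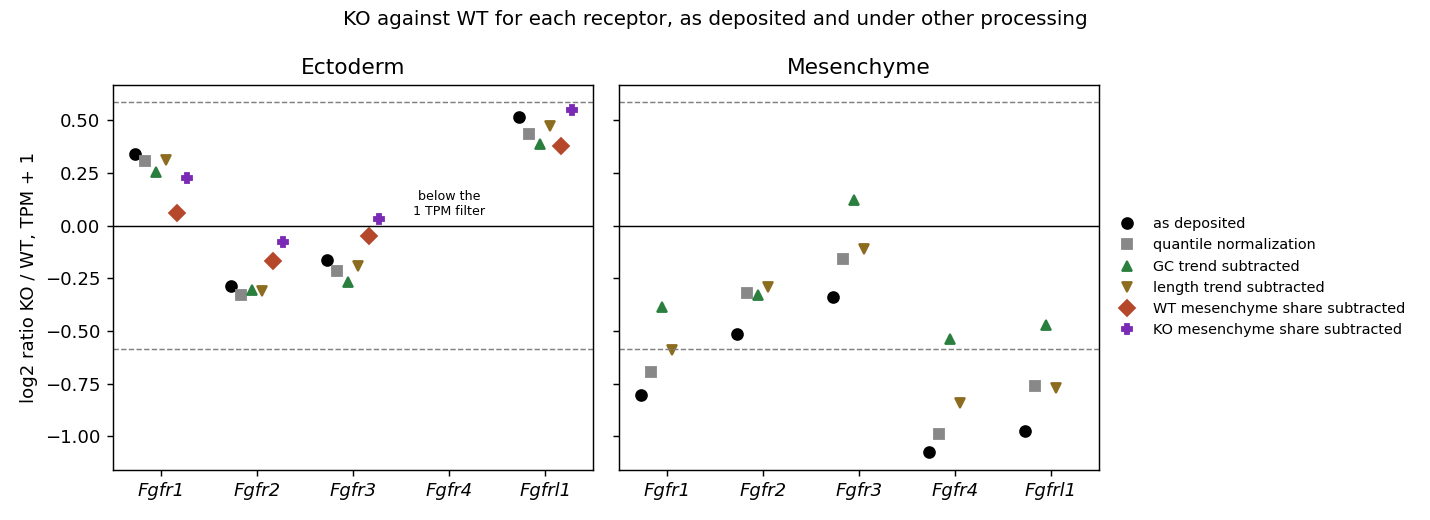
log2 ratio of KO to WT (vertical axis, TPM plus 1) for each receptor in ectoderm and mesenchyme, as deposited and under 5 other ways of processing (the mesenchyme share applies to ectoderm alone). Dashed lines mark 1.5-fold and 1 point stands for 1 value per group. Points of Fgfr1 and Fgfrl1 are above 0 in ectoderm and below 0 in mesenchyme under every way shown.

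Ligands were measured beside their receptors. Fgf8 and Fgf9, ligands of IIIc forms, were ectodermal: Fgf8 was at 25.1 TPM in KO ectoderm and 26.3 in WT ectoderm, and at 0.47 and 0.44 in KO and WT mesenchyme, and Fgf9 was at 25.8 and 25.3 in KO and WT ectoderm and at 2.77 and 3.54 in KO and WT mesenchyme. Fgf10 and Fgf7, which bind the IIIb form of Fgfr2, were mesenchymal. Fgf10 was at 8.37 TPM in KO mesenchyme and 12.1 in WT mesenchyme, and at 2.60 in KO ectoderm and 1.30 in WT ectoderm. Fgf7 was at 2.86 and 2.91 TPM in KO and WT mesenchyme, and Fgf3 was under 1 TPM in every group. On the TPM scale Fgfr2 in ectoderm and Fgfr1 in mesenchyme stood above each of these ligands in every group.

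Of 18 Fgf ligands, 8 were tested in ectoderm. Fgf17 (8.05 TPM in KO and 3.54 in WT), Fgf18 (2.22 and 0.70) and Fgf10 were at least 1.5-fold higher in KO ectoderm and Fgf20 (0.66 and 1.75) was lower. The median of the 8 was 0.21, and of all genes tested in ectoderm 4.92% were higher and 0.452% lower, with a median of 0.05. In mesenchyme 6 were tested, and Fgf18 alone was past 1.5-fold, at 4.08 TPM in KO and 7.84 in WT (log2 ratio -0.80, and -0.35 after the GC trend was subtracted). The median there was -0.38, beside 13.4% of all genes lower and a median of -0.12, and after the trend was subtracted Fgf2 (-0.65) and Fgf10 (-0.64) were the 2 ligands at least 1.5-fold lower.

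The list of feedback genes and targets, which also holds general inhibitors such as Rasa1 and Lrig1, had 7 of 20 members higher by 1.5-fold or more in KO ectoderm. None was lower by that size, and the median was 0.44. Over all genes tested the lean was the same way, with 4.92% higher, 0.452% lower and a median of 0.05. Dusp6, a phosphatase that acts on Erk, was at 62.3 TPM in KO ectoderm and 38.5 in WT ectoderm (log2 ratio 0.68), and Etv5, a transcription factor induced by Fgf, at 63.98 and 40.3 (0.65). Etv4 and Etv1, factors of the same family, each had a log2 ratio of 0.99. Il17rd and Spry4, inhibitors of the pathway, had 0.98 and 0.85, and the phosphatase Dusp5 0.65. Markers of mesenchyme (1.89 times their WT sum) and of olfactory ectoderm (2.15 times) also stood higher in KO ectoderm. Among WT groups, Etv5 and Dusp5 were lower in mesenchyme than in ectoderm, and Etv4, Etv1, Il17rd, Spry4 and Dusp6 were higher. The part of mesenchymal or olfactory RNA in the values of these genes was not tested. Spry1 (47.4 TPM in KO and 33.5 in WT ectoderm) and Spry2 (48.1 and 34.7) were within 1.5-fold. In KO mesenchyme 4 of 20 were lower and 0 higher, not far from the 13.4% and 2.33% of all genes, and the median was -0.27: Etv5 (18.2 TPM in KO and 35.8 in WT), Spred2 (12.4 and 24.2), Spry4 (5.35 and 9.68) and Spry1 (8.84 and 15.3). After the GC trend was subtracted Etv5 (-0.67) and Spred2 (-0.66) were still past 1.5-fold, Dusp5 (0.99) and Ier2 (0.69) were higher and the median was 0.03. Dusp6 was at 56.3 TPM in KO mesenchyme and 53.98 in WT mesenchyme.

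Of 28 genes that carry the signal inside the cell, 0 were past 1.5-fold in ectoderm, where 5.37% of all genes were, and the median was 0.03. In mesenchyme 5 of 28 were lower and 0 higher, near the 13.4% and 2.33% of all genes, with a median of -0.29. After the GC trend was subtracted none was lower and 1, Cbl (0.595), was higher. Akt1, a kinase below the receptors, was at 139.6 TPM in KO mesenchyme and 257 in WT mesenchyme (log2 ratio -0.87), and Grb2, an adaptor of the receptor complex, at 33.2 and 56.97 (-0.76). Gab1, a docking protein, had -0.71 and Map2k2, a kinase above Erk, -0.67. Frs2, the adaptor that binds Fgf receptors directly, was at 19.5 TPM in KO mesenchyme and 24.9 in WT mesenchyme, and at 23.3 in KO ectoderm and 22.6 in WT ectoderm.

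Proteoglycans and other coreceptors had 4 of 19 members higher and 0 lower in KO ectoderm, and a median of 0.35, beside 4.92% higher and 0.452% lower among all genes. These were Cdh2 (26.2 TPM in KO and 10.7 in WT), Nrp1 (4.79 and 1.58), Ncam1 (11.4 and 6.28) and Sdc3 (32.1 and 18.5). All 4 were also more abundant in mesenchyme than in ectoderm among WT groups, Cdh2 at 77.2 TPM and Nrp1 at 27.1 TPM in WT mesenchyme. Both comparisons use the same WT ectoderm value. In KO mesenchyme 5 of 18 were lower and 0 higher, beside 13.4% and 2.33% of all genes, the median was -0.28, and Hspg2 and Gpc4 were the 2 lower ones after the GC trend was subtracted. Hspg2, the heparan sulfate proteoglycan perlecan, was at 13.8 TPM in KO mesenchyme and 45.4 in WT mesenchyme (log2 ratio -1.65, and -1.06 after the GC trend was subtracted). Sdc3 (-0.98), Gpc1 (-0.89) and Gpc4 (-0.84), which carry heparan sulfate at the cell surface, were next. Enzymes that build or trim heparan sulfate had 0 of 13 past 1.5-fold in ectoderm, where 5.37% of all genes were. In mesenchyme 5 of 15 were lower, beside 13.4% of all genes, among them Extl3, which starts the chains, at 17.95 TPM in KO and 41.6 in WT, and Sulf2, a sulfatase, at 162 in KO and 345 in WT. After the GC trend was subtracted 2 of the 15 were lower, Extl3 (-0.80) and Sulf2 (-0.75). Hs6st1 and Ndst2, sulfotransferases of the chains, had log2 ratios of -0.92 and -0.91 as deposited and -0.41 and -0.48 with the trend subtracted.

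Of 18 splicing regulators listed for the Fgfr2 exons and tested in ectoderm, Esrp1, the targeted gene, was the 1 past 1.5-fold, and the median was -0.05. In mesenchyme 1 of 17 was higher and 1 lower, with a median of -0.01. Over all genes tested, 5.37% were past that size in ectoderm and 15.7% in mesenchyme. The mesenchyme counts are near that share. In ectoderm the call of Esrp1 came with the design, and no other regulator listed was past that size. Dhx9, an RNA helicase, was at 228 TPM in KO mesenchyme and 89.7 in WT mesenchyme (log2 ratio 1.34), and at 187 in KO ectoderm and 247 in WT ectoderm. Khsrp, a splicing factor, was at 50.5 TPM in KO mesenchyme and 102 in WT mesenchyme (-1.002, and -0.51 after the GC trend was subtracted). None of these lists was tested as a set.

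**Figure D5:**
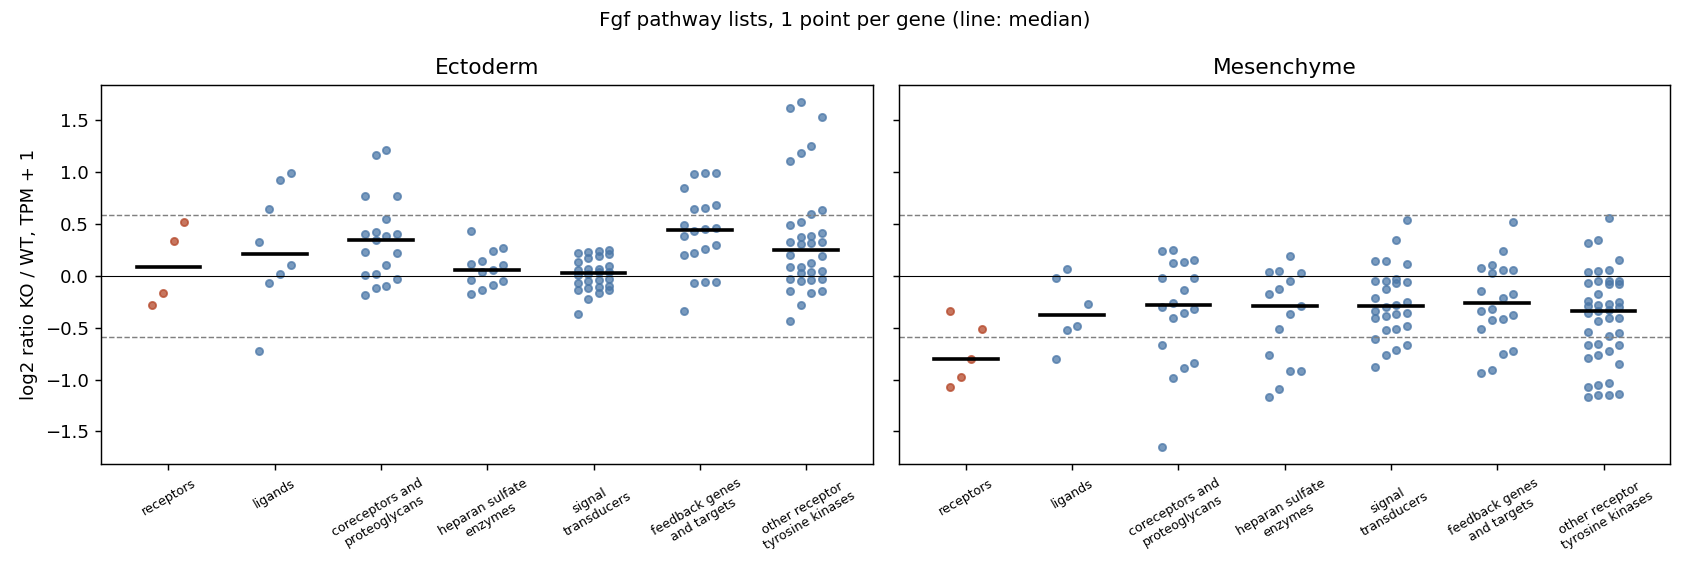
log2 ratio of KO to WT (vertical axis, TPM plus 1) of each measured gene, 1 point per gene, in the lists of the Fgf pathway and of other receptor tyrosine kinases, in ectoderm and mesenchyme. Black lines are list medians and dashed lines 1.5-fold. Receptors have a median of 0.09 in ectoderm and -0.80 in mesenchyme, and feedback genes 0.44 and -0.27.

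Genes with profiles most like the leading receptors were ranked by the Euclidean distance between log2 profiles over the 4 groups, each centred on its own mean, among 10770 protein-coding genes whose 4 values averaged 5 TPM or more. The nearest to Fgfr2 was Egr1, an immediate early transcription factor (distance 0.08, with 63.3 TPM in KO ectoderm, 80.6 in WT ectoderm, 13.6 in KO mesenchyme and 18.6 in WT mesenchyme). Cds1, Limk2, Sostdc1 and Crim1 followed, at distances from 0.14 to 0.16. The nearest to Fgfr1 were Limd2 (0.07), Arsb (0.09), Micall2 (0.09) and Olfml2b (0.10), and to Fgfr3 Icam1 (0.07), Igsf9, S100a11, Afap1l1 and Bdh1 (0.11). With 4 groups and 1 value in each, the ranking is a description.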

How the data were processed

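Messenger RNA was sequenced from 16 libraries, 4 in each of 4 groups. The authors deposited 1 table of TPM, a column for each group. The submitters' processing notes name the tools STAR 2.5.2a and kallisto 0.43.0 and the build mm10, without their roles. How the TPM of a group were made from its libraries, and with which annotation, is not given in the sources used here. The depth behind a TPM is unknown. The columns add up to 955495 in KO ectoderm, 917993 in WT ectoderm, 977371 in KO mesenchyme and 969156 in WT mesenchyme.

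The limma model planned for values per library could not be run on 1 value per group, so sizes are given: log2 ratios of TPM plus 1, for genes that averaged 1 TPM or more in the groups of a comparison, counted at 1.5-fold between genotypes and 2-fold between layers. Of a symbol in several rows (103 symbols) the row with the largest total was used. Transcript GC content and length came from the longest coding transcript of GENCODE M21 (99.0% of symbols matched). Trends were fitted by lowess (fraction 0.3, statsmodels 0.14.6) on genes that averaged 5 TPM or more. Exon positions and the sequence shown were read from the GENCODE M21 transcripts. Code was tested on simulated data.

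The members and lists were chosen with earlier results of these data known. The genes named are the receptors, up to 4 members of each list past 1.5-fold per comparison (2 where none was), some fixed genes of the pathway and the 5 nearest profiles, of which 1 is not reported here. Others, such as Fgf2, Frs2, Cbl, Dusp5 and Ier2, were named after their values were seen.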

Additional observations from a re-analysis of the deposited data

Results flagged for a closer look

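Fgfr1 and Fgfrl1 had KO effects of opposite direction in the layers, higher in KO ectoderm and lower in KO mesenchyme than in WT. The difference between the effects (ectoderm minus mesenchyme) was 1.14 on the log2 scale for Fgfr1 and 1.49 for Fgfrl1. It was not tested, since each group has 1 value. Beside it, the mesenchyme markers stood at 1.89 times their WT sum in KO ectoderm, and the trend with GC content at the receptors' GC was 0.50 for Fgfr1 and 0.64 for Fgfrl1. With a share of WT mesenchyme subtracted, the log2 ratios of KO to WT ectoderm were 0.06 for Fgfr1 and 0.38 for Fgfrl1. With a share of KO mesenchyme subtracted they were 0.22 and 0.55. With the GC trend subtracted, the difference between the effects was 0.64 for Fgfr1 and 0.86 for Fgfrl1. The part of markers or trend in the difference beyond these subtractions was not tested.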

How the results depend on the processing

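No paired analysis was possible because the table has 1 column per group and none per library, and for the same reason libraries could not be left out in turn. Of 176 receptor values recomputed under the alternatives, 163 kept their direction and their side of 1.5-fold or 2-fold. The 163 include the values without the filter on low values, a setting that cannot change a receptor's ratio and so is no check. Subtracting the GC trend took Fgfr1 (-0.38), Fgfr4 (-0.54) and Fgfrl1 (-0.47) within 1.5-fold in mesenchyme and moved Fgfr3 there to 0.12. It moved Fgfr3 to -0.38 for the difference of KO effects, and between KO layers Fgfr4 to -1.24 and Fgfrl1 to -0.17. With a pseudocount of 0.1 Fgfr4 was at -1.30 between KO layers. For the difference of KO effects, quantile normalization gave -0.011 for Fgfr2 and -0.059 for Fgfr3, and subtracting the length trend gave -0.033 and -0.09. Subtracting a share of KO mesenchyme moved Fgfr3 to 0.034 in ectoderm. Composition under quantile normalization was 22.4% Fgfr1 and 70.2% Fgfr2 in KO ectoderm, 15.7% and 76.9% in WT ectoderm, 63.2% and 32.0% in KO mesenchyme and 68.7% and 26.9% in WT mesenchyme. In KO ectoderm it was 17.7% and 74.6% after subtracting a share of WT mesenchyme, and 18.5% and 73.9% with a share of KO mesenchyme. The cause of each of these changes was not tested.

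Counts over all genes moved as follows. Lower genes in KO ectoderm, 63 as deposited, numbered 118 with a pseudocount of 0.1, 131 after quantile normalization, 99 without mitochondrially encoded genes, 99 after subtracting WT mesenchyme and 170 after subtracting KO mesenchyme, where higher genes (686) numbered 359 and 415. Quantile normalization gave 467 higher genes. In mesenchyme higher and lower genes (332 and 1902) numbered 639 and 968 after quantile normalization, 661 and 298 without the GC trend and 581 and 894 without the length trend, and higher genes 529 with a pseudocount of 0.1. For the difference of KO effects (3280 and 337) the counts were 1685 and 1103, 990 and 786, and 1783 and 942 under the same 3 settings, with 543 lower at the pseudocount of 0.1 and 521 without mitochondrially encoded genes. Between WT layers (980 and 1718) quantile normalization gave 1172 and 1358. At 2-fold between genotypes the counts were 224 and 21 in ectoderm, 89 and 261 in mesenchyme and 1052 and 85 for the difference, and at 4-fold between layers 401 and 590 in WT and 460 and 177 in KO. Quantile normalization moved the median of all genes to 0.02 in mesenchyme (-0.12 as deposited), 0.02 between WT layers (-0.15) and -0.04 for the difference of KO effects (0.19).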

Other observations

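Of 53 receptor tyrosine kinase genes, the 4 Fgf receptors with a kinase domain included, Fgfr2 ranked first in both ectoderm groups and Fgfr1 first in both mesenchyme groups. Fgfr1 ranked second in KO ectoderm, next to Ptk7, a kinase-like receptor of Wnt signalling (114.7 TPM in KO ectoderm and 86.1 in WT ectoderm), and ranked 4 in WT ectoderm. Pdgfra, the receptor for platelet-derived growth factor of mesenchyme, ranked second in both mesenchyme groups, at 122 TPM in KO and 126 in WT. Its log2 ratio of KO to WT mesenchyme was -0.05, against -0.80 for Fgfr1. With the GC trend subtracted the values were 0.05 for Pdgfra and -0.38 for Fgfr1, whose transcript has the higher GC content (55.4% against 48.1%). Ddr2, a collagen receptor, was at 98.1 TPM in KO mesenchyme and 101 in WT mesenchyme.

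Of 43 other kinases tested in mesenchyme, 14 were at least 1.5-fold lower in KO and 0 higher, the median of the 43 was -0.34 (13.4% of all genes were lower and 2.33% higher), and 6 were lower after the GC trend was subtracted. The lowest were Erbb2 (14.96 TPM in KO and 34.8 in WT), Pdgfrb, Ptk7 (48.1 and 108) and Ror2. In KO ectoderm 8 of 34 were higher and 0 lower, beside 4.92% and 0.452% of all genes, and the median was 0.25. Pdgfra (16.5 TPM in KO and 4.47 in WT ectoderm), Epha3, Ddr2 and Kdr were highest, and Pdgfra and Kdr are also on the marker lists of mesenchyme and endothelium.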
